A study of Homo sapiens with 30 samples.

Results

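The genes described here are 7 protein kinases that act on mitotic chromosomes or the spindle, CDK1, AURKA, AURKB, AURKC, GSG2, VRK1 and BUB1, together with RCC1, the nucleotide exchange factor of the RAN GTPase on chromatin. They were taken by their symbols, with no measured value in the rule, and all 8 were present among the 737 genes of the authors' table of pooled CRISPR-Cas9 knockout screens. The screens were run in HLF and PLC/PRF/5, which are established human hepatocellular carcinoma lines, the latter with hepatitis B virus DNA in its genome. Cells received a lentiviral vector that carries Cas9 and 1 guide RNA, so each screen was a mixed population of knockouts and not a clone. The labels describe 30 libraries in 10 groups of 3: initial and final libraries of each line on plastic (2D) and as spheroids in medium with 0.75% methylcellulose on ultra-low attachment ware (3D), and final HLF 3D libraries grown with DMSO, the solvent, or with SNDX-5613, an inhibitor of the menin-MLL1 interaction. Final libraries were from day 28 and initial ones from day 0, except that no day is labelled for the initial PLC/PRF/5 3D libraries. SNDX-5613 is labelled as 5 µM, but the study's text gives another dose for the screen, so its dose is unsettled here.

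During mitosis, CDK1 bound to a cyclin phosphorylates many proteins and drives the cell from interphase into division. Histone marks then tell the Aurora B kinase where to sit: haspin, the product of GSG2, phosphorylates threonine 3 of histone H3, BUB1 phosphorylates a threonine of histone H2A at the kinetochore, and the chromosomal passenger complex with Aurora B docks where these marks meet. Aurora B releases faulty attachments of chromosomes to the spindle, Aurora A works at centrosomes and spindle poles, and Aurora C is best known from germ cells, where it can take the place of Aurora B. VRK1 phosphorylates histone H3 and the chromatin protein BAF, and RCC1 charges RAN with GTP around chromosomes, which guides spindle assembly and, in interphase, nuclear transport.

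Guide sequences were at hand for 2 of the 8 genes, GSG2 and VRK1, with 7 guides each. They are shown because a knockout screen measures these cuts and not the protein. GSG2, named HASPIN in GENCODE release 44, has a single exon on the plus strand at chr17:3723903-3726699 (hg38), and lies within the span of ITGAE. VRK1 has 13 exons on the plus strand at chr14:96797304-96954846 (hg38). Each of the 14 guides matched 1 place in hg38 with an NGG beside it. Of each gene the first, the fourth and the last guide along the protein are printed 5′ to 3′, with the NGG (the PAM that Cas9 needs) in capitals.
GSG2 guide 1: ccgaaactcagaatcctcagGGG
GSG2 guide 4: gcaacgctgtgagaagattgGGG
GSG2 guide 7: aaactggtagtcaccgtcacCGG
VRK1 guide 1: tatatgaagcaaatgccaaaAGG
VRK1 guide 4: caaatcaccacgtcttgatgGGG
VRK1 guide 7: atggtcaaacacacagacagAGG
The GSG2 guides shown lie at chr17:3724696-3724715 on the minus strand, chr17:3725387-3725406 on the plus strand and chr17:3726073-3726092 on the minus strand, all in exon 1. The VRK1 guides shown lie at chr14:96852878-96852897 on the plus strand in exon 6, chr14:96856133-96856152 on the minus strand in exon 9, and chr14:96876083-96876102 on the plus strand in exon 12.

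All 14 guides cut coding sequence. The 7 GSG2 cuts fell between residues 255 and 714 of a protein of 798 residues. The triplet of the catalytic loop, which holds the aspartate that kinases need, starts at residue 647 there, and 5 of 7 cuts came before it. The 7 VRK1 cuts were spread over 6 exons, from residue 146 to residue 380 of 396, and 1 of 7 came before its catalytic triplet at residue 175. The guides of these kinases thus differed in where they lay relative to the catalytic residues, with the VRK1 set mostly behind them. How each guide changed was not analysed here. The other genes lie, in hg38, at chr10:60778331-60794852 (CDK1, plus strand), chr20:56369389-56392337 (AURKA, minus), chr17:8204733-8210600 (AURKB, minus), chr19:57231009-57235548 (AURKC, plus), chr2:110637528-110678063 (BUB1, minus) and chr1:28505943-28539300 (RCC1, plus).

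**Figure D1:**
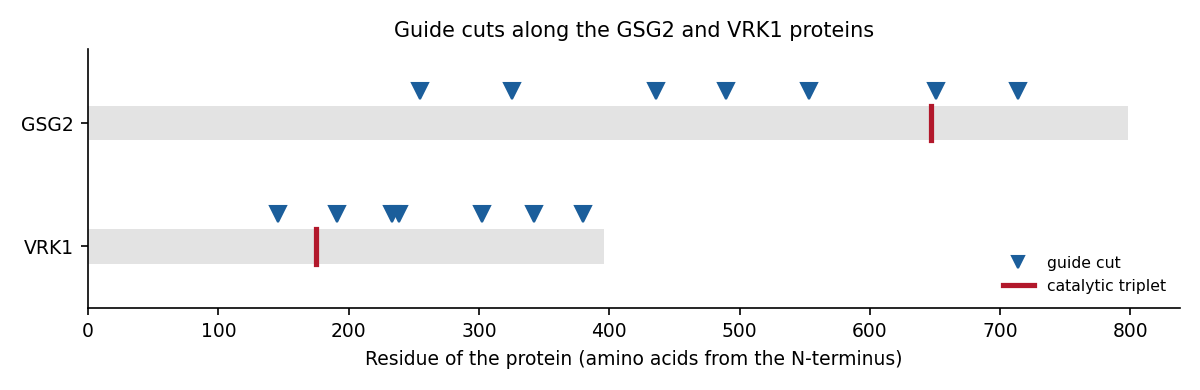
Positions of the 7 guide cuts (triangles) along the GSG2 and VRK1 proteins, in residues from the N-terminus, with the catalytic triplet as a red line. Of the cuts, 5 of 7 in GSG2 and 1 of 7 in VRK1 came before the triplet.

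The authors' table gives every gene 1 Score and 1 FDR for each comparison. The Score is minus the base 10 logarithm of the value by which MAGeCK's robust rank aggregation (RRA) combines the ranks of a gene's guides, with a minus sign where guides were lost. It measures evidence and is not a fold change. In 6 comparisons final libraries were set against initial ones, and these are called screens below. A gene was called depleted at an FDR under 0.05 with a Score below 0. No values per library entered, so single Scores carry no SD and the depth is unknown here. The only error at hand was the spread between HLF 3D and HLF 3D with DMSO, which repeats it: their Scores differed with an SD of 1.499 across all 737 genes, which is a yardstick and not a test.

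Of the 8 genes, 7 were called depleted in at least 5 of 6 screens, against 22.8% of all genes. In HLF 2D, 8 of 8 were called, against 68.0% of all genes, and in HLF 3D 7 of 8, against 27.1%. PLC/PRF/5 had 7 of 8 called in 2D, against 65.8%, and 4 of 8 in 3D, against 23.7%. With DMSO, 8 of 8 were called, against 41.5%, and with SNDX-5613 7 of 8, against 51.0%. In the 2D screens a call said little more than that the Score was below 0. In HLF 2D each of the 501 genes with such a Score was called, the weakest at -0.03, and 441 of them shared the smallest FDR of 8e-06, and in PLC/PRF/5 2D 485 of 488 were called. The weakest called Score was lower in the 3D screens: -1.21 in HLF 3D, -1.43 in PLC/PRF/5 3D, -0.72 with DMSO and -0.50 with SNDX-5613. None of the 8 genes was called enriched in any screen.

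CDK1, RCC1, GSG2 and VRK1 were called in all 6 screens, which held for 12.2% of all genes. AURKA, AURKB and BUB1 were called in 5 of 6, each missing only PLC/PRF/5 3D, and AURKC in 2 of 6. The median Score over the 8 genes was -3.09 and -2.97 in 2D and 3D culture of HLF, and -1.16 and -1.26 in those of PLC/PRF/5. Over all genes the medians were -0.55, -0.39, -0.58 and -0.51 in the same order. With DMSO and with SNDX-5613 the 8 genes had medians of -2.33 and -3.02, beside -0.45 and -0.52 over all genes. Ordered by the median of their 6 Scores, the genes ran from RCC1 (-5.15) through AURKB (-4.21), CDK1 (-3.59), BUB1 (-2.21), GSG2 (-1.98), VRK1 (-1.75) and AURKA (-1.59) to AURKC (-0.29). No error was at hand for these medians, so the order is a description.

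**Figure D2:**
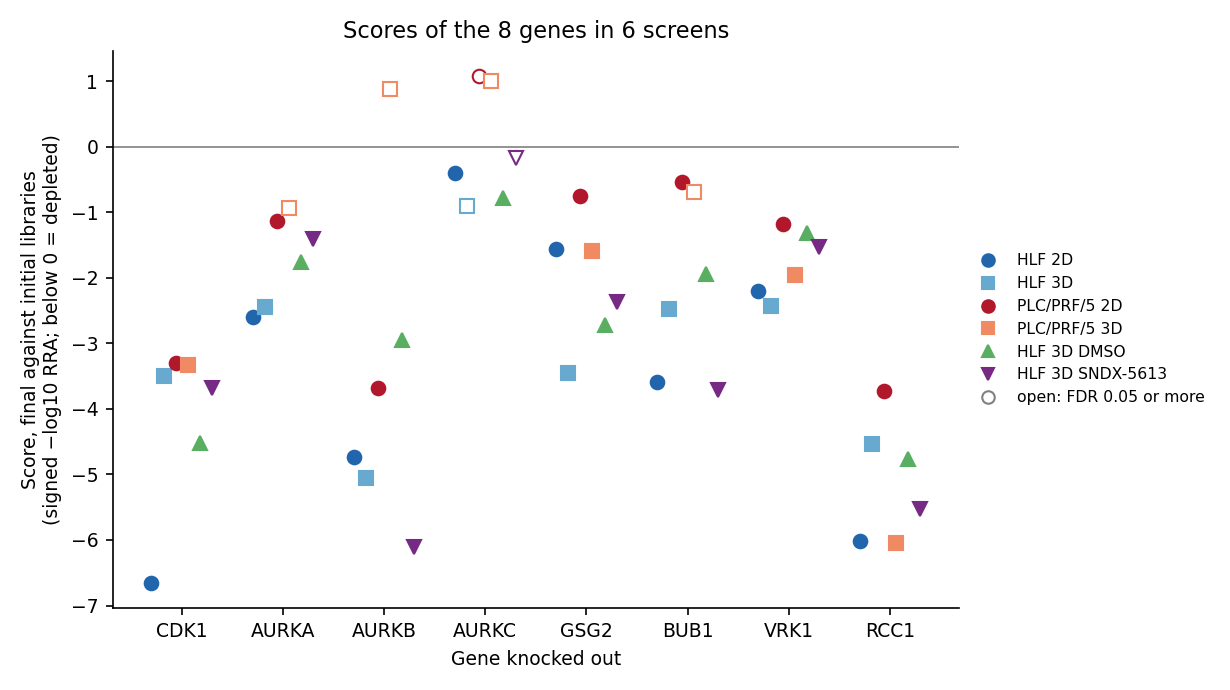
Scores (signed minus log10 of RRA, no unit) of the 8 genes in the 6 screens, 1 point per gene and screen, filled where the FDR was under 0.05 and open otherwise. CDK1 and RCC1 lie at -3.30 or lower in all 6 screens, AURKB has 1 open point above 0 in PLC/PRF/5 3D, and AURKC lies between -0.91 and 1.08.

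CDK1, the kinase that starts mitosis, had its lowest Score in HLF 2D, at -6.65 (FDR 8e-06), rank 4 of 737 from the lowest. Its Score was -3.50 in HLF 3D (FDR 7.4e-05), -4.52 with DMSO (FDR 4.3e-05) and -3.68 with SNDX-5613 (FDR 2.9e-05). The PLC/PRF/5 Scores were -3.30 in 2D (FDR 1.1e-05) and -3.33 in 3D (FDR 0.000296). Among its 6 Scores the HLF 2D value thus stood apart, 3.15 below HLF 3D and 3.35 below PLC/PRF/5 2D, or 2.10 and 2.23 times the SD between repeats. The other 5 Scores ranged over less than that SD, and the ranks of CDK1 in those screens ran from 18 to 47. Between HLF 3D and 2D, 39.6% of all genes differed by more than 1 SD, and between the lines in 2D 28.9% did. Set directly against HLF 2D, CDK1 in HLF 3D had a Score of 0.59, not called, beside a median of 0.40 over all genes.

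CDK1 had several relatives in the table. Of those compared, CDK2 shared the most residues with it, 65.3% over the alignment of both proteins, and CDK17, a longer protein of 523 residues against 297, the fewest, 30.99%, or 55.4% where gaps are left out. CDK2, which acts earlier in the cell cycle and is named here for its sequence, was called in 5 of 6 screens, with Scores from -2.22 to -0.71. It was above CDK1 in each screen. The gap was widest in HLF 2D, at 4.43, and narrowest in PLC/PRF/5 2D, at 1.08.

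RCC1, the only member that is not a kinase, was among the lowest Scores of each screen, between rank 2 and rank 38. It stood at -6.02 in HLF 2D (FDR 8e-06), -4.54 in HLF 3D (FDR 7.4e-05), -4.77 with DMSO (FDR 4.3e-05) and -5.53 with SNDX-5613 (FDR 2.9e-05). Its PLC/PRF/5 Scores were -3.73 in 2D (FDR 1.1e-05) and -6.04 in 3D (FDR 0.000135). Its rank of 2 in PLC/PRF/5 3D was the lowest that any of the 8 genes reached in any screen. The step from PLC/PRF/5 2D to 3D was -2.31, or 1.54 times the SD between repeats, while in HLF the 3D Score was 1.47 above the 2D Score, 0.98 times that SD. The step in HLF was within the SD. Between PLC/PRF/5 3D and 2D, 42.6% of all genes differed by more than 1 SD.

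The 3 Aurora kinases had unlike Scores. AURKB, the kinase of the chromosomal passenger complex, had Scores of -4.73 in HLF 2D (FDR 8e-06), -5.06 in HLF 3D (FDR 7.4e-05), -2.95 with DMSO (FDR 4.3e-05) and -6.10 with SNDX-5613 (FDR 2.9e-05). AURKB guides in PLC/PRF/5 2D gave -3.68 (FDR 1.1e-05), rank 39. In PLC/PRF/5 3D its Score was 0.88 (FDR 1), rank 550, so AURKB was the only one of the 8 genes that was depleted in 1 culture of a line and above 0 in the other. That step of 4.57 was 3.05 times the SD between repeats, and the gap of 5.94 to HLF 3D was 3.96 times that SD. Of all genes, 42.6% and 35.0% differed by more than 1 SD between the same screens. The 2 PLC/PRF/5 screens carry different number tags in the table's headings, whose meaning is not given, so culture and run cannot be told apart in that line.

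AURKA, the kinase of spindle poles, was lower in HLF than in PLC/PRF/5. It stood at -2.59 in HLF 2D (FDR 8e-06), -2.44 in HLF 3D (FDR 0.00173), -1.76 with DMSO (FDR 0.00199) and -1.41 with SNDX-5613 (FDR 0.0025). Guides in PLC/PRF/5 gave -1.14 in 2D (FDR 1.1e-05) and -0.93 in 3D, where it was not called (FDR 0.156). Its gaps between the lines, 1.45 in 2D and 1.51 in 3D, were 0.97 and 1.01 times the SD between repeats.

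AURKC, the Aurora kinase of germ cells, had the highest Score of the 8 genes in each screen. Its Score was -0.40 in HLF 2D and -0.78 with DMSO, and both were called (FDR 8e-06 and 0.0374). It was -0.91 in HLF 3D (FDR 0.0841) and -0.18 with SNDX-5613 (FDR 0.254), and neither was called. In PLC/PRF/5 it lay above 0, at 1.08 in 2D and 1.00 in 3D (FDR 1 in both). The called value in HLF 2D had rank 395 of 737, behind the middle of the table. The HLF 3D Score was lower than both called values yet not called, because the Score that an FDR of 0.05 requires differed between screens.

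By sequence the closest pair was not the pair with the closest Scores. AURKB and AURKC shared 68.9% of aligned residues, AURKA and AURKB 53.6%, and AURKA and AURKC 50.4%. Over the 6 screens the distance between AURKB and AURKC (the square root of the summed squared differences of Scores) was 9.92, between AURKA and AURKB 6.68 and between AURKA and AURKC 4.27. Whether a guide against one Aurora gene also matches another was not tested, since their guides were not at hand.

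The kinases that write histone marks beside Aurora B, GSG2 and BUB1, had middle Scores. Their gaps between lines or cultures were beyond the SD between repeats in some comparisons and within it in others. GSG2 was at -1.57 in HLF 2D (FDR 8e-06), -3.46 in HLF 3D (FDR 7.4e-05), -2.72 with DMSO (FDR 0.000114) and -2.37 with SNDX-5613 (FDR 2.9e-05). The Score in PLC/PRF/5 was -0.75 in 2D (FDR 7.4e-05) and -1.59 in 3D (FDR 0.0286). In both lines the 3D Score of GSG2 was the lower one, by 1.89 in HLF and 0.85 in PLC/PRF/5. These steps were 1.26 and 0.56 times the SD between repeats. Taken to the DMSO repeat, at -2.72, the gap to HLF 2D was within that SD. Of all genes, 39.6% in HLF and 42.6% in PLC/PRF/5 differed by more than 1 SD between cultures. The rank of GSG2 went from 233 in HLF 2D to 38 in HLF 3D, and from 336 to 156 in PLC/PRF/5.

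BUB1, a kinase of the spindle checkpoint, had lower Scores in each HLF screen than in PLC/PRF/5. Its Score was -3.60 in HLF 2D (FDR 8e-06), -2.47 in HLF 3D (FDR 0.00149), -1.95 with DMSO (FDR 0.00147) and -3.71 with SNDX-5613 (FDR 2.9e-05). Its PLC/PRF/5 Scores were -0.54 in 2D (FDR 0.00027) and -0.69 in 3D, not called (FDR 0.254). The gap between the lines was 3.05 in 2D and 1.78 in 3D, 2.04 and 1.19 times the SD between repeats. The called value in PLC/PRF/5 2D had rank 377 of 737, close to the median gene.

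VRK1 varied little. It stood at -2.19 in HLF 2D (FDR 8e-06), -2.43 in HLF 3D (FDR 0.00173), -1.31 with DMSO (FDR 0.00899) and -1.53 with SNDX-5613 (FDR 0.00108). PLC/PRF/5 gave -1.18 in 2D (FDR 1.1e-05) and -1.96 in 3D (FDR 0.0103). Its 6 Scores spanned less than the SD between repeats, so no order among the screens can be read from them. GSG2 and VRK1 also stand in the study's text as shared hits, left after broadly essential genes were removed, on these same screens, so these calls are not independent evidence.

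**Figure D3:**
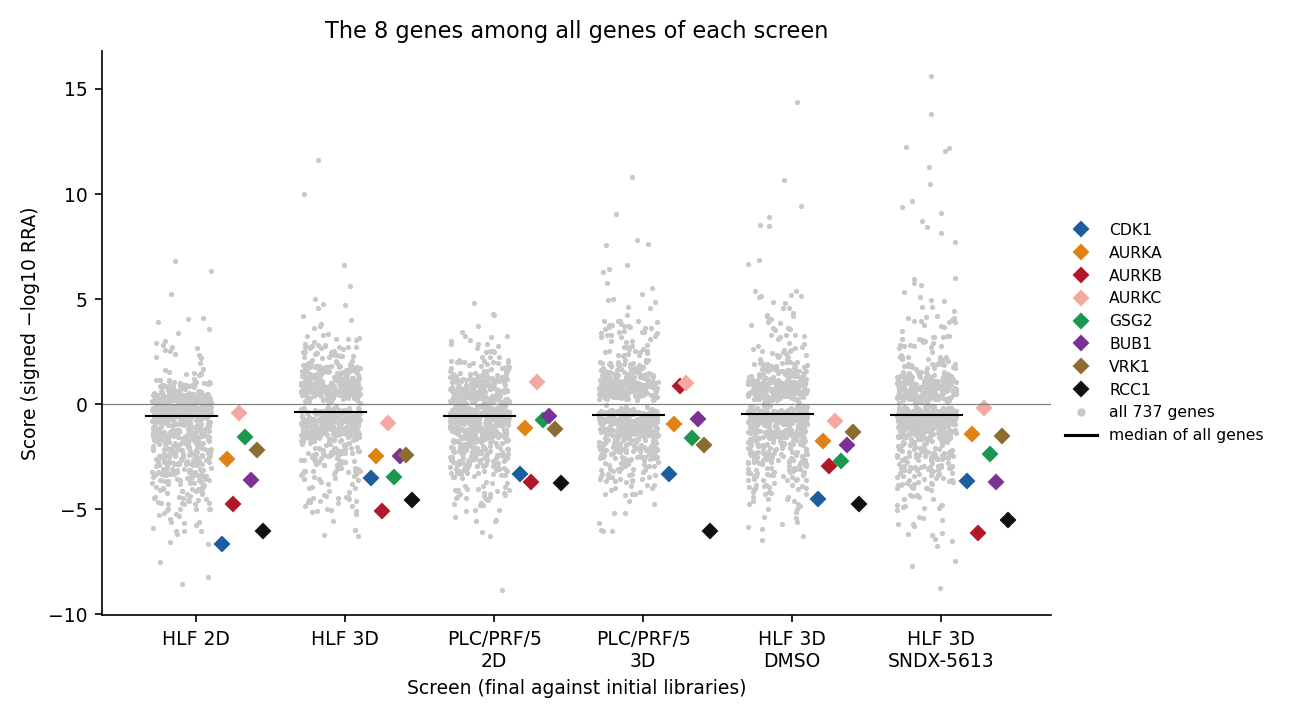
Scores (signed minus log10 of RRA) of all 737 genes (grey, with the median as a black line) and of the 8 genes (coloured diamonds) in the 6 screens. CDK1 and RCC1 lie in the lower part of every cloud, and in PLC/PRF/5 3D AURKB and AURKC sit above 0 beside the RCC1 value of -6.04.

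HLF 3D and its DMSO repeat show how far the Scores of these genes move without a change of line or culture. Besides the solvent, the number tags of their headings differ, so they may come from different runs. AURKB moved most, from -5.06 to -2.95, 1.41 times the SD, and it was the only one of the 8 genes beyond 1 SD, against 30.8% of all genes. CDK1 was 1.02 lower in the repeat and VRK1 1.11 higher, 0.68 and 0.74 times the SD. RCC1 moved by 0.23 and AURKC by 0.13. All 7 genes called in HLF 3D were also called in the repeat, where AURKC was called as well. The repeat called more of all genes, 41.5% against 27.1%. The share of all genes called in both was not counted, so the overlap says little about the 8 genes. Only 1 group of initial libraries is labelled for HLF 3D, so both screens may share it, and the SD may then be too small.

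**Figure D4:**
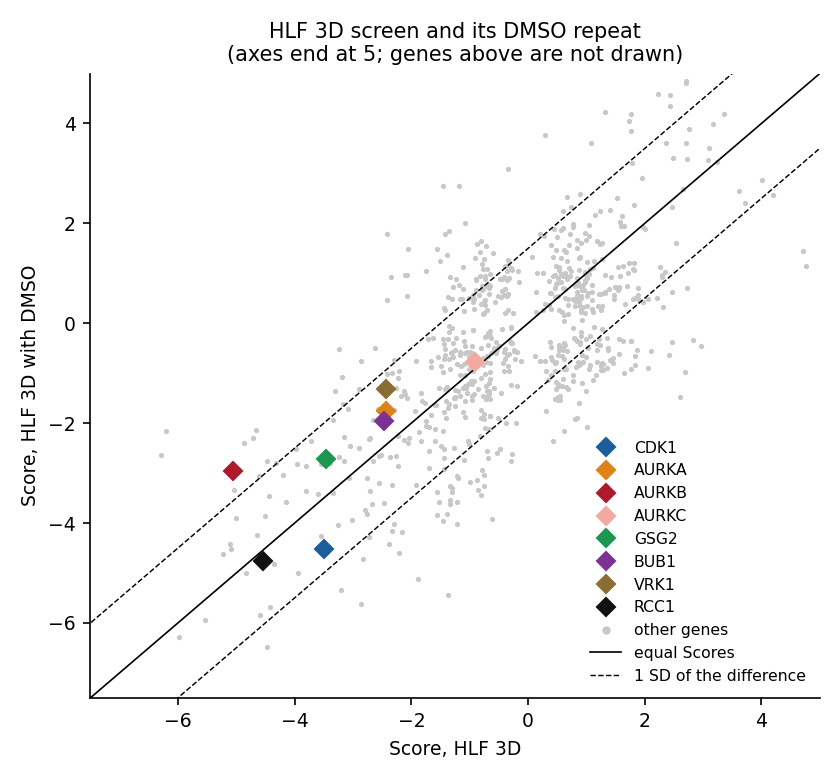
Score in HLF 3D (x axis) against Score in the DMSO repeat (y axis) for all genes (grey) and the 8 genes (diamonds). The solid line marks equal Scores and the dashed lines 1.499 to either side. AURKB alone among the 8 lies outside them, and 15 genes with a Score above 5 are not drawn.

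Between the lines, the genes were on the whole lower in HLF. In 2D, 8 of 8 Scores were higher (nearer 0 or above it) in PLC/PRF/5, against 58.6% of all genes, with a median difference of 1.47 beside 0.29 over all genes. In 3D, 7 of 8 were higher in PLC/PRF/5, against 50.3% of all genes, with a median difference of 1.65 beside 0.03, and RCC1 was the exception at -1.50. Gaps beyond the SD between repeats were found in 2D for CDK1, BUB1 and RCC1, and in 3D for AURKB, AURKC, GSG2, BUB1 and AURKA, which was at 1.01 times the SD. These were 3 of 8 genes in 2D, against 28.9% of all genes, and 5 of 8 in 3D, against 35.0%. The 3D gaps were taken to HLF 3D and not to its DMSO repeat. There AURKA, GSG2 and BUB1 stood at -1.76, -2.72 and -1.95, beside -0.93, -1.59 and -0.69 in PLC/PRF/5 3D. Their gaps to the repeat were thus within the SD, while those of AURKB and AURKC stayed beyond it. VRK1, at -1.31 in the repeat, was above its PLC/PRF/5 3D Score of -1.96. The lines were not compared directly in the table, so these gaps carry no test. The number tags differ between the lines as well, so line and run cannot be told apart.

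Final 3D libraries were also set directly against final 2D libraries, where a Score below 0 means fewer guides in the final 3D libraries. Initial libraries do not enter these comparisons, and whether the cultures started alike was not tested. In HLF, 0 of 8 genes were called depleted and 0 of 8 enriched. Among all genes 0% were called depleted, and 12.2% were called enriched. GSG2 had the lowest Score of the 8, -2.09, at rank 39 of 737 (FDR 1), followed by VRK1 at -1.63 (FDR 1), AURKA at -0.93, AURKC at -0.71 and RCC1 at -0.35. BUB1 had the highest, 1.00 (FDR 0.337), and CDK1 and AURKB were at 0.59 and 0.57 (FDR 0.539 and 0.552). The lower 3D Score of GSG2 against the initial libraries thus came with a Score below 0 in the direct comparison, but without a call. Even the lowest Score of all genes there, -5.15, was not called, so the missing call says little about GSG2.

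In PLC/PRF/5, 0 of 8 genes were called in either direction, while among all genes 0.136% (1 gene) were called depleted and 7.06% enriched. BUB1 was lowest, at -2.62 and rank 25 (FDR 0.8), although its Scores against the initial libraries, -0.54 in 2D and -0.69 in 3D, were close. A Score of -5.22 was still not called depleted there, so the missing call says little about BUB1. CDK1 was at -1.75 (FDR 1), GSG2 at -1.44 (FDR 1), RCC1 at -1.27, AURKC at -1.20, AURKA at -0.83 and VRK1 at -0.13. AURKB was the only one above 0, at 1.31 (FDR 0.483). So the step of AURKB from -3.68 to 0.88 was not matched by a call when the final libraries were set against each other.

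With the menin inhibitor set directly against DMSO in HLF 3D, 0 of 8 genes were called, while among all genes 0.543% were called depleted and 4.07% enriched. A Score of -3.75 was still not called depleted there, so missing calls at weaker Scores say little. AURKB was lowest, at -2.12 and rank 41 (FDR 0.436), and BUB1 followed at -1.57 (FDR 0.638). These were also the genes whose Scores against the initial libraries were more than 1 SD lower with SNDX-5613 than with DMSO, by 3.16 and 1.76, and 29.6% of all genes differed by more than 1 SD in either direction. For AURKB the DMSO Score was itself 2.11 above that of HLF 3D. The other 6 were above 0, from AURKC at 0.09 to CDK1 at 1.14 (FDR 0.932 and 0.329). The median over the 8 genes was 0.44 and the mean -0.001, beside a median of 0.05 over all genes.

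**Figure D5:**
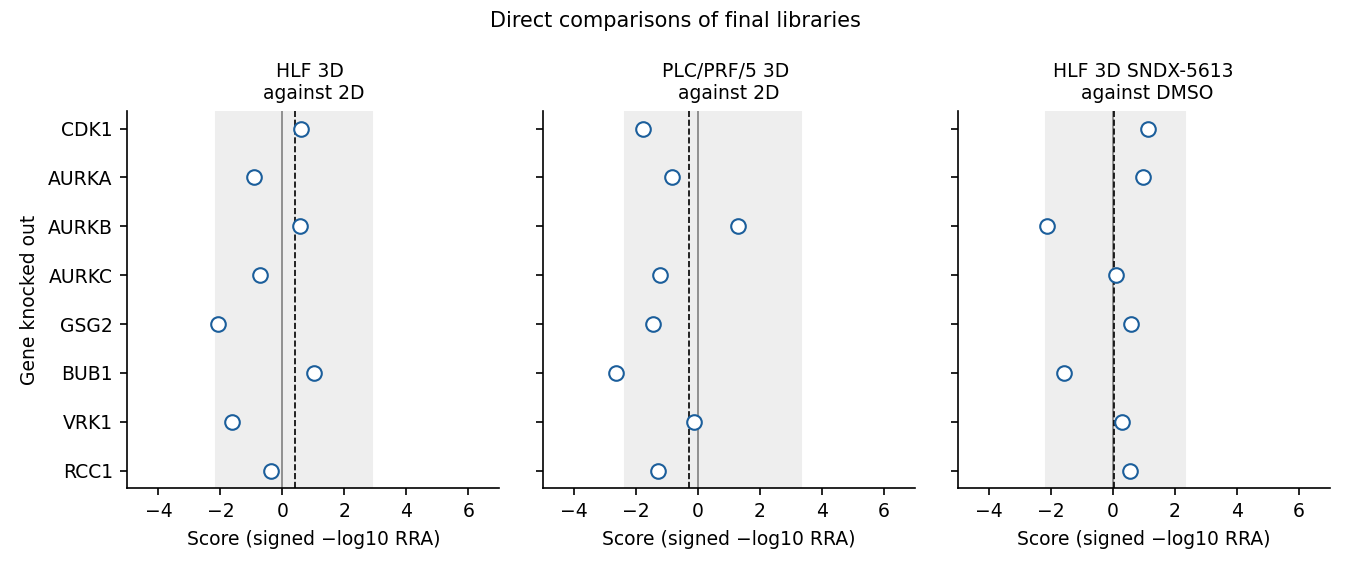
Scores (signed minus log10 of RRA) of the 8 genes when final libraries were set against each other: 3D against 2D in HLF and in PLC/PRF/5, and SNDX-5613 against DMSO in HLF 3D. Open points mark an FDR of 0.05 or more, the grey band holds the middle 90% of all genes and the dashed line their median. All 24 points are open, and BUB1 in PLC/PRF/5 alone lies outside the band.

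Of the 6 other mitotic kinases of the table (TTK, MASTL, NEK6, NEK9, CIT and PBK), 4 were called depleted in each 2D screen. In HLF 3D 1 was called, with DMSO 4, with SNDX-5613 4 and in PLC/PRF/5 3D 0. None was called in all 6 screens, beside 12.2% of all genes, and among so few genes that says little. The 66.7% in each 2D screen was near the shares of all genes, 68.0% in HLF and 65.8% in PLC/PRF/5. In the 3D screens the shares over all genes were 27.1% in HLF, 41.5% with DMSO, 51.0% with SNDX-5613 and 23.7% in PLC/PRF/5. The median Score of these 6 kinases ran from -1.47 with SNDX-5613 to 0.50 in PLC/PRF/5 3D. TTK, the checkpoint kinase also known as MPS1, had Scores from -2.33 in HLF 3D to -0.54 with SNDX-5613 and was called in 5 of 6 screens. MASTL, the Greatwall kinase that restrains the phosphatase opposing CDK1, had 2D Scores of -2.98 in HLF and -3.08 in PLC/PRF/5. In PLC/PRF/5 3D it stood at 2.54 (FDR 0.454), above 0 like AURKB, and its direct Score of 2.12 was not called (FDR 0.141). In HLF 3D against 2D, PBK was called enriched at 2.46 (FDR 0.0199).

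The centromere and chromosome structure genes (CENPA, CENPC, HJURP, NSL1, NIPBL and TOP2A) were all called depleted in both 2D screens, 6 of 6. In HLF 3D 4 of 6 were called, in PLC/PRF/5 3D 2 of 6, with DMSO 5 of 6 and with SNDX-5613 5 of 6. Over all genes, 68.0% and 65.8% were called in the 2D screens, where a call meant little more than a Score below 0. In the 3D screens the shares over all genes were 27.1% in HLF, 23.7% in PLC/PRF/5, 41.5% with DMSO and 51.0% with SNDX-5613. CENPA, the histone H3 variant of centromeres, ran from -2.93 with SNDX-5613 to -1.28 in PLC/PRF/5 3D, where it was not called (FDR 0.0909). HJURP and NSL1 were called in all 6 screens, 2 of 6 genes, beside 12.2% of all genes. NSL1, a subunit of the kinetochore complex MIS12, ran from -4.50 in HLF 3D to -2.25 in PLC/PRF/5 3D. NIPBL, the loader of cohesin, went the other way. It was called depleted in both 2D screens, at -2.51 and -1.58, and called enriched in PLC/PRF/5 3D (4.95, FDR 0.00983), with SNDX-5613 (5.35, FDR 0.00173) and in the direct comparisons of both lines (2.77 and 5.61, FDR 0.0156 and 0.000203). It was also called enriched with SNDX-5613 against DMSO (3.09, FDR 0.0144).

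Of the 32 other protein kinases, 22 were called depleted in 2D and 8 in 3D culture of HLF, and 14 and 9 in those of PLC/PRF/5. These were 68.8%, 25%, 43.8% and 28.1%, beside 68.0%, 27.1%, 65.8% and 23.7% of all genes. With DMSO 16 were called and with SNDX-5613 16, which is 50% in both, beside 41.5% and 51.0% of all genes. CDK7, CDK9, ATR and CHEK1 were called in all 6 screens, as were 12.2% of all genes. The median Scores of the 32 kinases lay between -0.75 and 0.25, nearer to the medians of all genes than to those of the 8 genes. CHEK1, which holds cells with damaged DNA before mitosis, reached -6.21 in HLF 3D, rank 2 of 737, but -2.16 in the DMSO repeat, rank 123. It stood at -3.26 with SNDX-5613, at -4.28 in HLF 2D and, for the other line, at -2.72 in 2D and -1.78 in 3D. MAP3K7, a kinase of TGF-beta and inflammatory signalling, had PLC/PRF/5 Scores of 0.22 in 2D and -5.66 in 3D, and was the gene called depleted in the direct comparison there (-6.64, FDR 0.0109). DAPK3, a death-associated kinase, had the highest Scores of the list in PLC/PRF/5 3D, at 7.64, and with SNDX-5613, at 8.73.

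The genes with the Scores most like those of each member over the 6 screens, by the same distance, came from many processes. Of the 24 places 2 went to other members, AURKA and VRK1 for each other. The members are only 8 of the 737 genes, so few such places were to be had. For CDK1 they were RUVBL2 and RUVBL1, ATPases of several chromatin complexes, and EXOSC6 of the RNA exosome, at distances of 2.00, 2.07 and 2.05. For RCC1 they were the DNA methyltransferase DNMT1 (2.47), ELP6 of Elongator (2.70) and MCRS1 (2.77). For AURKB they were the replication clamp PCNA (2.91), EXOSC7 of the exosome (3.22) and EED of the Polycomb complex PRC2 (3.96). PCNA was the nearest, and in PLC/PRF/5 3D its Score was -0.39.

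AURKA and VRK1 were near each other, at 1.20, the shortest distance between any 2 of the 8 genes. AURKA was also near SF3B1, a splicing factor, at 1.11, and CECR2 at 1.13. VRK1 was also near TAF2, a subunit of TFIID, at 1.20, and the cullin CUL1 at 1.37. GSG2 was nearest to the nucleolar methyltransferase FBL (1.36), the histone chaperone ASF1A (1.63) and YY1 (1.79). BUB1 was nearest to SAP18 (1.67), CDC73 (1.85) and SF3B1 (1.91), and AURKC to PCGF6 (0.60), YWHAB (0.90) and ANP32B (1.05), which like it lie near 0. Distances were shorter for genes with Scores near 0, where most of the table lies. The 4 screens of HLF weigh more in them than the 2 of PLC/PRF/5, and the HLF 3D screens may share initial libraries.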

How the data were processed

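The screens were made with a lentiviral library of guides against chromatin regulators. The authors compared guide abundance with MAGeCK, relative to the non-targeting guides of the library. The MAGeCK version and guide build are not given in the sources used here. Per gene, the authors deposited 1 score (called Score) and 1 FDR, which is an adjusted p-value, in each of 9 comparisons, over 737 genes. These columns are the authors' own comparisons and were used because the deposited table holds no values per library. Every Score, taken as a signed minus log10, came back as an RRA value with 5 significant digits (relative tolerance 1e-08). Groups came from the labels. The labels do not say whether replicates were separate cultures, so the spread behind an FDR may be technical. The direct comparisons read 3D over 2D and SNDX-5613 over DMSO, since each correlated positively across genes with the difference of its screens (r = 0.883, 0.879 and 0.777). Genes were called at an FDR under 0.05. Guides were matched to hg38 and placed with GENCODE release 44, and proteins translated from it were aligned globally (Biopython 1.88, BLOSUM62, gap penalties -11 and -1). Tables were made with Python 3.11.15, pandas 2.3.3 and numpy 2.4.6. Only the search for nearest genes and the SD between screens were tested on simulated data.

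All 8 members are named in every comparison, beside TTK, MASTL, CENPA and CHEK1, up to 2 genes at either end of each other list, and the 3 nearest genes of each member by Euclidean distance over 6 screens. The members and lists were chosen with earlier results of these data known. Alternatives were other FDR thresholds (0.01 and 0.1), a minimum Score, the lowest 25% of Scores, means, medians without AURKC or RCC1, another error and centring, other measures of likeness, and identity without gaps.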

Additional observations from a re-analysis of the deposited data

How the results depend on the processing

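The counts of called genes kept within 1.5 times of their value at FDR limits of 0.01 and 0.1 and with a Score of -1 or less, except that 2 of 8 genes in place of 4 (CDK1 and RCC1) passed an FDR of 0.01 in PLC/PRF/5 3D. By the lowest 25% of all Scores, 3 of 8 in place of 7 counted as depleted in PLC/PRF/5 2D. No gene was called in a direct comparison at FDR limits of 0.01 or 0.1. With a Score of at least 1 in size as the only condition, 3 of 8 genes counted in HLF 3D against 2D. In PLC/PRF/5 3D against 2D 6 counted, and with SNDX-5613 against DMSO 3. The share of all genes that pass this condition was not counted. The middle 90% of all genes reached from -2.14 to 2.88, -2.33 to 3.32 and -2.14 to 2.35 in the same order. A Score of 1 in size thus lay inside that spread, and these counts say little about the 8 genes. Without gap columns, identity came to 64.1% for AURKA and AURKB, 65.7% for AURKA and AURKC, 76.7% for AURKB and AURKC and 55.4% for CDK1 and CDK17, because the unaligned ends no longer count. The order of the 3 Aurora pairs changed, with AURKB and AURKC still the most alike. Medians kept their direction, apart from the median of 0.44 and mean of -0.001 with SNDX-5613 against DMSO. So did the 15 differences beyond 1 SD with the other error and with centring, while the difference of AURKA between HLF 3D and 2D, 0.101 times the SD, turned to -0.008 with centring. The nearest genes moved most: by correlation over 9 comparisons, each member kept 0 or 1 of its 3. No paired analysis was possible because the deposited table used here holds no value per library, and for the same reason no replicate was left out and depth was not weighed. Counts per library were not used here.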
